A study of Mus musculus with 8 samples.

Results

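The 10 genes described here, *Klk6*, *Apod*, *Trf*, *Ptgds*, *Il33*, *Jph4*, *Far1*, *Pmp22*, *Car2* and *Anln*, are genes by which subtypes of mature oligodendrocytes (OLs) are told apart. They were chosen by name as OL genes, with earlier results of these data known, and are 10 of the 33696 genes counted. Their RNA was followed in OL nuclei, in other cell types of the optic nerve (ON) and in barcodes with fewer than 100 unique molecular identifiers (UMIs, each standing for 1 captured RNA molecule).

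The data are single-nucleus RNA counts from ONs of female mice at P120, the age of 120 days. The study asked what the ion channel gene *Piezo2* does in OLs, and set 4 control libraries of *Piezo2f/f* mice (replicates 1 to 4) against 4 libraries of *Olig2-cre;Piezo2f/f* mice, the conditional knockout (cKO, replicates 10 to 13). Each library pooled 6 ONs from 3 mice. Both groups carry the floxed *Piezo2* allele. The cKO group alone carries cre, which is inserted into the *Olig2* gene and is therefore active across the OL lineage, from precursors on, and takes 1 copy of *Olig2* from use. The floxed stretch is a small inner part of *Piezo2*, so counts over the whole gene do not check its removal. *Piezo2* itself measured 342 to 457 CPM (UMI counts scaled to the total of the summed nuclei) in OLs of the controls and 476 to 524 CPM in those of the other group (edgeR, log2 fold change 0.33 ± 0.12 SE, adjusted p = 0.372). The second group is therefore called the libraries labelled cKO. *Olig2* measured 23.3 to 38.8 CPM in OLs of the controls and 42.7 to 55.7 CPM in the libraries labelled cKO (0.68 ± 0.14, adjusted p = 0.167). Each library is a pool, so p-values measure the spread between pools.

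The libraries held 39628926 to 56541132 UMIs and 4517 to 8333 called nuclei each, and 38865 nuclei remained after filters. Any pair of libraries had 4 to 21 called barcodes in common. OL nuclei were those with at least 3 UMIs of *St18*, a transcription factor gene of differentiated OLs. They numbered 19508, with 1489 to 3663 per library and median counts of 2600.5 to 3613 UMIs. The limit was passed narrowly by 1803 nuclei with exactly 3 *St18* UMIs and narrowly missed by 1688 nuclei with 2. These nuclei also held the OL markers *Mog* and *Prr5l*, but their maturity was not checked against newly formed OLs. *Enpp6*, a gene of newly formed OLs, stood at 326 ± 52.5 CPM in OL nuclei with an *Il33* UMI and 427 ± 27.5 CPM in those without (SD, n = 8), and was higher with *Il33* in 0 of 8 libraries. With and without a *Klk6* UMI it stood at 444 ± 56.6 and 398 ± 36.2 CPM, higher with *Klk6* in 7 of 8. Both differences, −0.36 ± 0.05 and 0.15 ± 0.05 (log2, SE), were under the fold limit of 0.5 for a call (edgeR, adjusted p = 1.15e-10 and 0.0554). *Mog* measured 870 CPM on average in OL nuclei against 68.7 to 127 CPM in astrocytes, OL precursor cells (OPCs), fibroblasts and myeloid cells. *Prr5l* measured 2539 CPM against 44.8 to 111 CPM. The other types were gated by marker genes, which gave 8157 astrocytes, 2754 fibroblasts, 1293 myeloid cells and 828 OPCs. This gate counted *Mog* and *Prr5l* UMIs against a nucleus, so their low levels in the other types were partly set by it. In 2178 OL nuclei (11.2%) a second cell type had at least 3 UMIs of at least 2 markers and at least 25% of the marker UMIs. These mixed nuclei were kept. Smaller amounts of other types in the remaining OL nuclei were not counted per nucleus. A free RNA share of OL nuclei, estimated by scaling the barcodes with fewer than 100 UMIs to the markers of astrocytes, fibroblasts, myeloid and endothelial cells, came to 33.1 to 58.3%. *Ptgds* in OL nuclei lay at 0.140 to 0.224 times its level in those barcodes, which caps a share of that profile below the estimate. The estimate is therefore too high, and no result rests on it.

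OLs wrap axons of the central nervous system in myelin. After they begin to form myelin they mature into several subtypes with different genes in use, and the shares of these subtypes differ along the brain, nerve and spinal cord. The 10 genes fall into several functions. *Klk6* encodes a secreted serine protease, *Apod* a secreted lipid carrier, *Trf* transferrin, the iron carrier on which OLs depend, and *Ptgds* prostaglandin D2 synthase, which meningeal cells also make in quantity. *Il33* encodes an alarmin of the interleukin-1 family that is stored in the nucleus. *Jph4* encodes a junctophilin, which joins the plasma membrane to the endoplasmic reticulum. *Far1* makes fatty alcohols for ether lipids, a class in which myelin is rich. *Pmp22* encodes a compact myelin protein best known from Schwann cells, *Car2* carbonic anhydrase 2, and *Anln* anillin, a scaffold of actin and septin filaments.

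All 10 are protein-coding genes of GRCm39, the build of the counts. *Klk6* lies at chr7:43473869-43481516 (plus strand), *Far1* at chr7:113090023-113170726 (plus) and *Pmp22* at chr11:63019718-63050600 (plus). *Il33* lies at chr19:29902483-29938933 (plus) and *Car2* at chr3:14951317-14967568 (plus). The others are on the minus strand: *Apod* at chr16:31115010-31135355, *Trf* at chr9:103081200-103107814, *Anln* at chr9:22242402-22300501, *Ptgds* at chr2:25352795-25362601 and *Jph4* at chr14:55344274-55354392. Reads were not split by isoform.

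Promoter sequence from RefSeq was matched by symbol for 8 of the 10 genes, in 13 entries with 1 start site each. *Trf* and *Car2* had no entry. Given here are the bases upstream of the first exon of *Klk6*, the 1 member called between genotypes, and of *Il33* and *Jph4*, the pair detected together most above expectation. RefSeq gives them on GRCm38.p6, and each was found letter for letter in GRCm39, at the positions named. Capitals mark a match to ACAAAG (or CTTTGT on the other strand), the core bound by SOX factors such as Sox10, or to CAGCTG, an E-box of the kind bound by Olig2. The motifs do not overlap in these entries.
*Klk6*, chr7:43473718-43473868, plus strand: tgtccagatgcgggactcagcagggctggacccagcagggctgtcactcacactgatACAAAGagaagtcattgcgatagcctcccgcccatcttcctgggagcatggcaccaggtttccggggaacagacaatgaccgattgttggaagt
*Il33*, chr19:29902263-29902482, plus strand: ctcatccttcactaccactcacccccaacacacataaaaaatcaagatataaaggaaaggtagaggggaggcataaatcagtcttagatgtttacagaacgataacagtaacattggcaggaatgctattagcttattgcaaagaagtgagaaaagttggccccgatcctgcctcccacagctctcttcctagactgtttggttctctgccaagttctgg
*Jph4*, chr14:55354393-55354642, minus strand: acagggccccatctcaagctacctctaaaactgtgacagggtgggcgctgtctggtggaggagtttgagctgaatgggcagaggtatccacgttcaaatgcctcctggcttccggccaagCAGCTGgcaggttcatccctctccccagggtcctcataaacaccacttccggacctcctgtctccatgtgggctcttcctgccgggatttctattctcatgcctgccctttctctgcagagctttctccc
The *Klk6* stretch held 1 SOX core and the *Jph4* stretch 1 E-box, and the *Il33* stretch held neither. Over the 250 bases before each start, 2 of the 13 entries had a SOX core (*Klk6* and *Apod*) and 2 an E-box (*Ptgds* and *Jph4*). Of the 32536 promoters in the table, 16.5% had the first and 13.1% the second. These matches are a description of letters and not of binding.

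In OL nuclei each of the 10 genes was detected in every library. Levels are given here as CPM of the nuclei summed per library, and are compared between cell types and libraries but not between genes. *Anln* differed most between OLs and other types, with 856 ± 109 CPM in OL nuclei (SD, n = 8 libraries) against 59.8 to 109 CPM on average in astrocytes, OPCs, fibroblasts and myeloid cells. *Il33* measured 244 ± 29.5 CPM in OL nuclei and 34.1 to 64.5 CPM in the other types. *Jph4* measured 52.8 ± 9.90 CPM against 6.05 to 15.4 CPM. In 288 neuron-like nuclei *Jph4* reached 63.4 ± 7.12 CPM, from 126 UMIs in all, and the libraries overlapped with those of OLs (54.5 to 77.4 against 37.7 to 70.1 CPM). *Car2* measured 1293 ± 118 CPM in OLs against 207 to 405 CPM, and *Trf* 2526 ± 404 CPM against 522 to 1159 CPM. *Far1* was more even, with 222 ± 20.9 CPM in OLs and 96.3 to 145 CPM elsewhere.

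*Klk6*, *Trf*, *Il33*, *Jph4*, *Far1*, *Car2* and *Anln* were called higher in OLs against all 4 types. In edgeR's test with the library as a block, 8 of the 10 members were called higher in OLs than in astrocytes (adjusted p below 0.05 and a log2 fold change past 0.5), where 22.5% of all 14228 genes tested were called higher and 27.7% lower. Against OPCs 9 were called higher (19.4% of all genes higher, 20.6% lower). Against fibroblasts 7 were called higher and 1 lower (27.5% and 25.9%), and against myeloid cells 8 were called higher (31.2% and 21.7%). The median log2 fold change of the members was 1.63 against astrocytes, 1.82 against OPCs, 2.05 against fibroblasts and 1.22 against myeloid cells. The medians of all genes tested were 0.00, 0.08, 0.03 and 0.17. The members were chosen as genes of OLs, so these counts and medians are a description and no separate evidence.

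Sizes differed among these 7. *Anln* was higher by 3.29 ± 0.12 (log2, SE) against myeloid cells and by up to 4.09 ± 0.11 against fibroblasts. *Il33* was higher by 2.23 ± 0.14 to 2.98 ± 0.10, and *Jph4* by 2.07 ± 0.22 to 3.28 ± 0.17. *Klk6*, the protease gene, was higher by 1.03 ± 0.11 to 1.60 ± 0.09, which is less than any difference of *Trf* with the same type. The difference was smallest against myeloid cells for each of the 7.

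*Ptgds*, *Apod* and *Pmp22* did not follow this order. *Ptgds* measured 2198 ± 691 CPM in OLs and 10412 ± 1355 CPM in fibroblasts, a log2 fold change of −2.11 ± 0.09 for OLs (edgeR, adjusted p = 3.89e-25). The ranges did not overlap, with 1545 to 3579 CPM in OLs and 8237 to 13069 CPM in fibroblasts. Its OL level was 0.47 above astrocytes, 0.49 above OPCs and −0.11 from myeloid cells, none of them called. *Apod* was called higher than in astrocytes, OPCs and myeloid cells (1.20, 1.26 and 0.81) but not than in fibroblasts (0.33, under the fold limit). *Pmp22* was called higher against OPCs alone (0.88 ± 0.14), and its fibroblast level of 209 ± 41.5 CPM was above the OL level of 128 ± 26.6 CPM (−0.50 ± 0.09, just under the fold limit). Of 4 Schwann cell markers, *Pmp2* was at 0 in OL nuclei and the summed level was 2.56 to 4.69 CPM. The part of Schwann cells in the *Pmp22* counts was not tested.

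**Figure D1:**
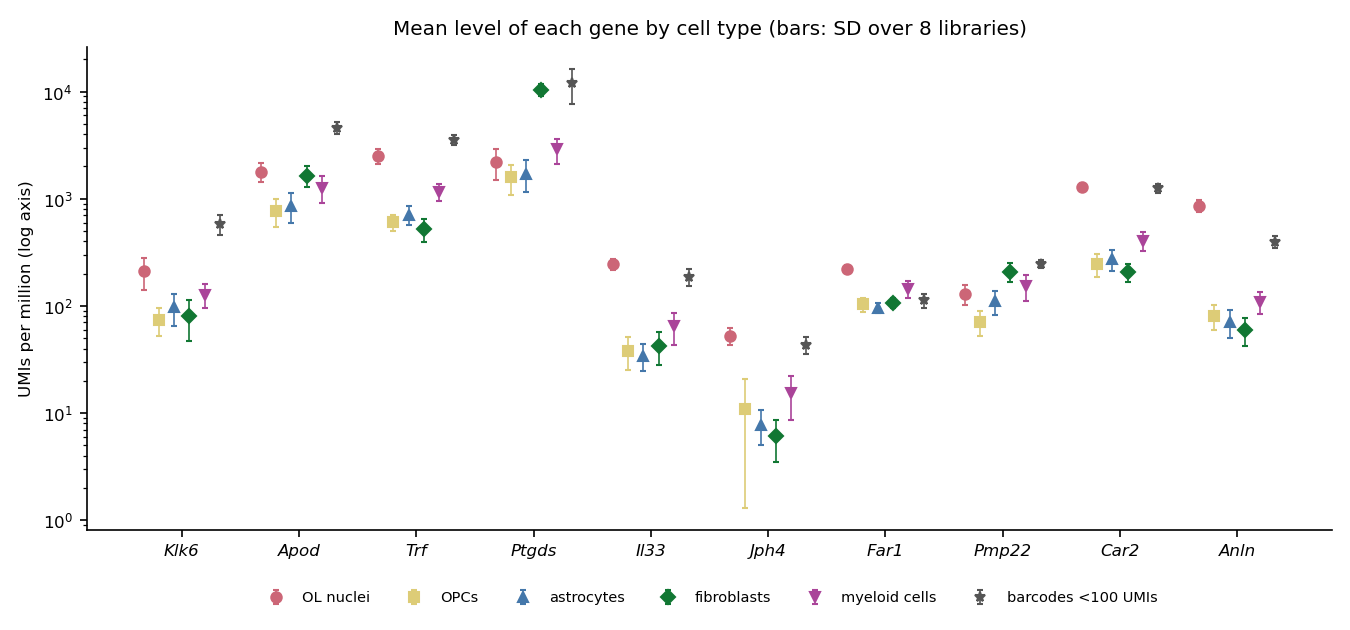
Mean level of each of the 10 genes, in CPM on a log axis, in OL nuclei, OPCs, astrocytes, fibroblasts, myeloid cells and barcodes with fewer than 100 UMIs, with bars for the SD over 8 libraries. *Il33*, *Jph4*, *Car2* and *Anln* have their OL level well above the 4 other cell types, *Ptgds* is highest in fibroblasts among the nuclei, and the low barcodes lie above the OL level for *Klk6*, *Apod*, *Trf*, *Ptgds* and *Pmp22*.

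Of 20 other genes of mature or myelin-forming OLs, 19 could be tested. Of these 14 were called higher and 2 lower in OLs than in astrocytes, 16 and 1 against OPCs, 15 and 3 against fibroblasts, and 16 and 1 against myeloid cells. *Aspa*, which makes acetate available for myelin lipids, was 4.10 higher than in astrocytes on the log2 scale and *Mog*, a myelin surface protein, 3.42 higher. The astrocyte gate counted *Mog* against a nucleus, so its low level there was partly set in advance. *Tcf7l2*, a factor of newly formed OLs and also of astrocytes, was 1.97 lower than in astrocytes.

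Barcodes with fewer than 100 UMIs are too small for nuclei and were taken as RNA outside nuclei. What they hold was not tested. They numbered 674659 to 916067 per library, averaged 1.26 to 1.41 UMIs each and held 1.81 to 2.99% of the UMIs of a library. Between OL nuclei and this pool the 10 genes differed in both directions, at shares near those of all genes tested. For *Klk6* the low barcodes held 581 ± 127 CPM (SD, n = 8), above the 211 ± 71.2 CPM of OL nuclei, and the OL level fell by 1.41 ± 0.07 (log2, SE). *Apod* was lower in OL nuclei by 1.29 ± 0.07, *Ptgds* by 2.35 ± 0.08 and *Pmp22* by 0.88 ± 0.07. *Far1* and *Anln* were higher in OL nuclei than in the pool, by 1.06 ± 0.07 and 1.20 ± 0.07. In edgeR's test these 4 and 2 members were called lower and higher, where 32.7% and 28.1% of the 14737 genes tested were. *Trf* (−0.42), *Jph4* (0.36) and *Il33* (0.48) had adjusted p of at most 4.93e-04 but stayed under the fold limit, and *Car2* was at 0.12 ± 0.06 (adjusted p = 0.0723). Over 15 alternatives *Il33* was called in 4, *Trf* in 3, and *Jph4* and *Car2* in 1 each. DESeq2 called 7 members, and 10184 genes in all, in both directions together. Barcodes with 100 to under 500 UMIs numbered 63134 to 76370 per library and held 46.7 to 60.2% of its UMIs. They are thus a far larger pool of RNA outside called nuclei. Against them *Trf* was at −1.18 and *Car2* at −0.80, both called, *Il33* at −0.29 and *Jph4* at −0.049. The direction of *Il33*, *Jph4* and *Car2* therefore depends on the pool. *Anln* lay in OL nuclei at 2.19 ± 0.34 times its level in the low barcodes of the same library (SD, n = 8), *Far1* at 1.99 ± 0.26 times, *Il33* at 1.33 ± 0.15 and *Klk6* at 0.356 ± 0.054 times.

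The level of each gene in other cell types was also set against this pool. In astrocytes 8 of the 10 genes lay between 0.147 and 0.215 times their level in the low barcodes, and in OPCs the same 8 between 0.128 and 0.273 times. In astrocytes this band took in *Jph4*, with 7.79 ± 2.81 CPM, and *Ptgds*, with 1715 ± 565 CPM. *Far1* (0.860 ± 0.080 times) and *Pmp22* (0.448 ± 0.114 times) stood above this band in astrocytes. In fibroblasts *Far1* (0.957 times), *Ptgds* (0.932 times), *Pmp22* (0.848 times) and *Apod* (0.356 times) stood above the other 6 genes, which lay between 0.138 and 0.225 times. Fewer nuclei that make a gene and less of its RNA per nucleus cannot be told apart in such sums.

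Detection per nucleus was compared after each nucleus had been thinned to 1000 UMIs, which left out 199 OL nuclei of lower count. All 10 genes were found in a larger share of OL nuclei than of astrocytes in 8 of 8 libraries. *Anln* was found in 55.7 ± 5.09% of OL nuclei and 7.20 ± 2.21% of astrocytes (SD, n = 8), *Car2* in 70.7 ± 3.08% and 24.8 ± 4.81%, and *Il33* in 20.7 ± 2.72% and 3.37 ± 1.05%. *Ptgds* was found in 78.3 ± 8.11% and 75.0 ± 9.03%, a small difference within each library, and *Pmp22* in 12.6 ± 2.67% and 9.85 ± 2.16%. *Klk6* was found in 18.6 ± 5.47% of OL nuclei and 9.70 ± 3.10% of astrocytes. Without thinning these shares were 45.7 ± 10.8% and 24.8%, at median counts per library of 2600.5 to 3613 UMIs in OLs and 2550 to 3745 UMIs in astrocytes. OL nuclei held UMIs of 4.51 ± 0.21 of the 10 genes on average, and 72.3 to 86.5% of them held at least 4.

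How unevenly a gene is spread over OL nuclei was read from the share of nuclei with a UMI, as counted, over the share that counting noise gives if every OL nucleus of the library used the gene at 1 common level. *Il33* departed furthest, with 0.814 as the median of 8 libraries (0.765 to 0.861). *Jph4* followed with 0.906 (0.868 to 0.934) and *Klk6* with 0.917 (0.862 to 0.970). *Apod* (1.000), *Trf* (0.999), *Ptgds* (0.995) and *Car2* (0.990) were at the expected share, although shares near 100% leave little room for a departure. The highest count in a single OL nucleus, which the share does not take in, was 17 UMIs for *Il33* and for *Klk6*, 6 for *Jph4*, 96 for *Trf* and 110 for *Apod*. For *Ptgds* it was 279 to 1516 UMIs per library, so a share at its expected value does not show that a gene was evenly spread.

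In the same nuclei *Il33* was detected with *Jph4* more often, and with *Anln* and *Far1* less often, than its single share gives. Co-detection is given as the number of thinned OL nuclei with both genes over the number expected from the 2 single shares, per library. The nuclei of a library share its free RNA, so these ratios are a description and were not tested. Of the 45 pairs, 37 had a median ratio from 0.9 to 1.1. The pair *Il33* and *Jph4* had the highest median, 1.39. Its ratios in control libraries 1 to 4 were 1.54, 1.80, 1.53 and 1.88, from 27 to 58 nuclei with both genes. In the libraries labelled cKO 10 to 13 they were 1.099, 1.099, 1.24 and 1.19, from 20 to 42 nuclei. All 8 ratios were over 1. The higher median of the controls was not present without thinning, where 1870 nuclei in place of 298 held both genes. The median ratios were then 1.35 in the controls and 1.400 in the libraries labelled cKO, with all 8 between 1.26 and 1.49. Differences in depth between nuclei are not taken out of ratios without thinning, and the thinning itself was 1 random draw. Which of the 2 orders holds was therefore not settled. *Klk6* and *Pmp22* had a median of 1.15 (1.04 to 1.32) and *Il33* and *Car2* 1.098 (1.02 to 1.12).

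Ratios were over 1 in all 8 libraries for 15 pairs and under 1 in all 8 for 2. Those 2 were *Il33* with *Anln*, at a median of 0.814 (0.793 to 0.951), and *Il33* with *Far1*, at 0.867 (0.675 to 0.976). Without thinning these medians were 0.967 and 0.978, with *Il33* and *Far1* over 1 in 1 library. *Jph4* gave 0.934 with *Anln* (0.730 to 1.01) and lay between 0.691 and 1.20 with *Far1*, each over 1 in 1 library, and 0.991 and 0.999 without thinning. With nuclei of mixed markers left out, 9 pairs were over 1 in every library. After thinning, the genotypes did not overlap in 4 of the 45 pairs, namely *Il33* with *Jph4*, whose medians changed order without thinning, *Klk6* with *Trf*, *Apod* with *Trf* and *Pmp22* with *Anln*. The group means of the last 3 lay between 1.01 and 1.08. Pairs of other genes were not counted in this way, and the 45 pairs share members. Whether 4 is more than another list of genes would give was not tested.

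**Figure D2:**
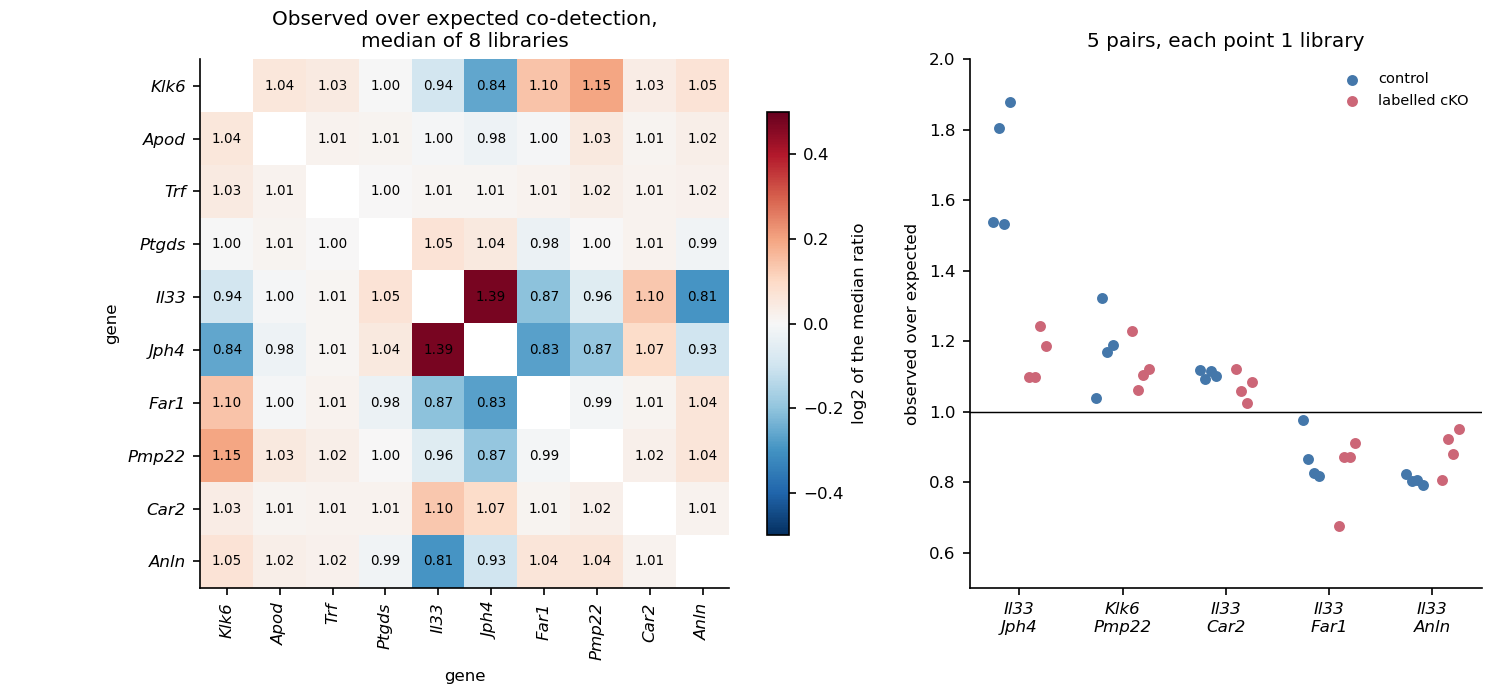
Left, median over 8 libraries of observed over expected co-detection for each pair of genes in OL nuclei thinned to 1000 UMIs, coloured on a log2 scale. Right, the ratio in each library for 5 pairs, where *Il33* and *Jph4* lie between 1.53 and 1.88 in the controls and between 1.099 and 1.24 in the libraries labelled cKO after thinning (medians of 1.35 and 1.400 without it), and *Il33* with *Anln* lies under 1 in all 8.

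The following comparisons use the same thinned nuclei as the co-detection and are no separate evidence for it. To see which genes go with *Il33*, OL nuclei with at least 1 *Il33* UMI after thinning (326 to 761 per library) were set against those without, as 2 sums per library with the library as a block. *Jph4* measured 80.4 ± 23.3 CPM in the nuclei with *Il33* and 51.0 ± 10.3 CPM in those without (SD, n = 8), higher in 8 of 8 libraries. These levels were 96.4 ± 23.6 and 48.02 ± 14.6 CPM in the controls and 64.5 ± 5.01 and 53.9 ± 3.08 CPM in the libraries labelled cKO (SD, n = 4 each), from 130 to 473 UMIs each, and the difference between genotypes was not tested. The log2 fold change was 0.64 ± 0.10 over both genotypes (edgeR, adjusted p = 2.19e-07), 0.9967 ± 0.15 in the controls alone and 0.77 ± 0.06 without thinning. *Jph4* was the 1 member called of the 9 tested, where 1.26% of 9827 genes were called higher and 2.64% lower. *Car2* (0.33 ± 0.02), *Ptgds* (0.18 ± 0.02) and *Trf* (0.06 ± 0.02) were above 0 and *Far1* (−0.23 ± 0.06) and *Anln* (−0.34 ± 0.03) below 0 with adjusted p of at most 0.0274, all under the fold limit. *Car2* was higher in 8 of 8 libraries, *Ptgds* in 7, *Trf* in 5, and *Far1* and *Anln* in 0 of 8. Without thinning *Trf* changed sign, to −0.044. *Klk6* (−0.06), *Apod* (−0.02) and *Pmp22* (−0.04) had adjusted p of 0.662 to 0.869. The median of the members was −0.02, and that of all genes 0.01.

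Among the other genes of mature OLs, 1 of 18 tested was called higher and 2 lower in nuclei with *Il33* by edgeR, and DESeq2 called 1. *Opalin*, a transmembrane protein of myelin-forming OLs, was higher by 0.75 ± 0.05 (399 ± 58.5 against 243 ± 39.1 CPM, in 8 of 8 libraries). *Hopx* was lower by 0.53 ± 0.15 and *Tcf7l2* by 0.50 ± 0.12, both at the fold limit. *Mal*, a proteolipid of compact myelin, and *Grm3*, a glutamate receptor, were higher in 8 of 8 libraries at 0.40 and 0.37, under the limit. The genes whose pattern was most like that of *Il33*, by adjusted p and with 1 direction in all 8 libraries, were *Kirrel3* (1.09 ± 0.05, adjusted p = 4.4e-56), *Slc7a15* (1.16 ± 0.06), *Erbb4* (0.68 ± 0.03), *9330111N05Rik* (0.85 ± 0.05) and *Pakap* (0.83 ± 0.05). *Kirrel3* is an adhesion molecule, with 521 ± 137 against 250 ± 59.4 CPM, and *Erbb4* is a neuregulin receptor, with 995 ± 108 against 633 ± 63.1 CPM. The opposite pattern was strongest for *Adgrb3*, an adhesion receptor (−0.97 ± 0.05, 292 ± 26.6 against 577 ± 53.9 CPM). *Gm32122* (−0.96), *Gm48742* (−0.63), *Trpm3* (−0.86) and *Rora* (−0.81) followed.

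OL nuclei were also split by *Klk6*. A *Klk6* UMI was found in 9.70% of astrocytes against 18.6% of OL nuclei after thinning, and an *Il33* UMI in 3.37% against 20.7%, so the sizes of differences are not compared between the 2 splits. The part of free RNA in either split was not tested. Nuclei with a *Klk6* UMI numbered 245 to 988 per library. None of the 9 other members was called in edgeR's test, in which 0.117% of 10250 genes were called higher and 1.22% lower. An unadjusted p under 0.05 was found for 6 members and for 1208 of the 10250 genes. DESeq2 called 0 members and 49 genes in all. *Trf* (0.28 ± 0.02, adjusted p = 3.07e-36), *Apod* (0.27 ± 0.02), *Pmp22* (0.26 ± 0.07) and *Anln* (0.15 ± 0.03) had adjusted p of at most 0.0156 with differences under the fold limit. *Trf* measured 3183 ± 524 against 2625 ± 412 CPM and *Apod* 2249 ± 520 against 1877 ± 362 CPM, each higher in 8 of 8 libraries. *Il33* was at −0.18 ± 0.06 (adjusted p = 0.055, higher in 1 of 8 libraries). Of 18 other OL genes tested, 0 were called by edgeR or by DESeq2, 11 with an unadjusted p under 0.05.

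The genes most like *Klk6* in this split were *Serpina3n*, a secreted protease inhibitor of reactive glia (0.77 ± 0.08, 153 ± 42.9 against 86.9 ± 22.5 CPM, adjusted p = 3.57e-17), and *St8sia5*, a sialyltransferase of gangliosides (0.57 ± 0.12). *Gm13404* (0.72), *Cdk5rap1* (0.80) and *2310002F09Rik* (0.83) followed, with means of 17.0 to 32.5 CPM in nuclei with *Klk6*. Lower in nuclei with *Klk6* were *Trpm3* (−0.75 ± 0.07), *Csmd1* (−1.12 ± 0.14), *Grm7* (−0.68 ± 0.08) and *Meg3* (−1.29 ± 0.16), of which the last 3 are widely used by neurons. Without the library as a block 9 genes in place of 137 were called in the *Klk6* split.

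**Figure D3:**
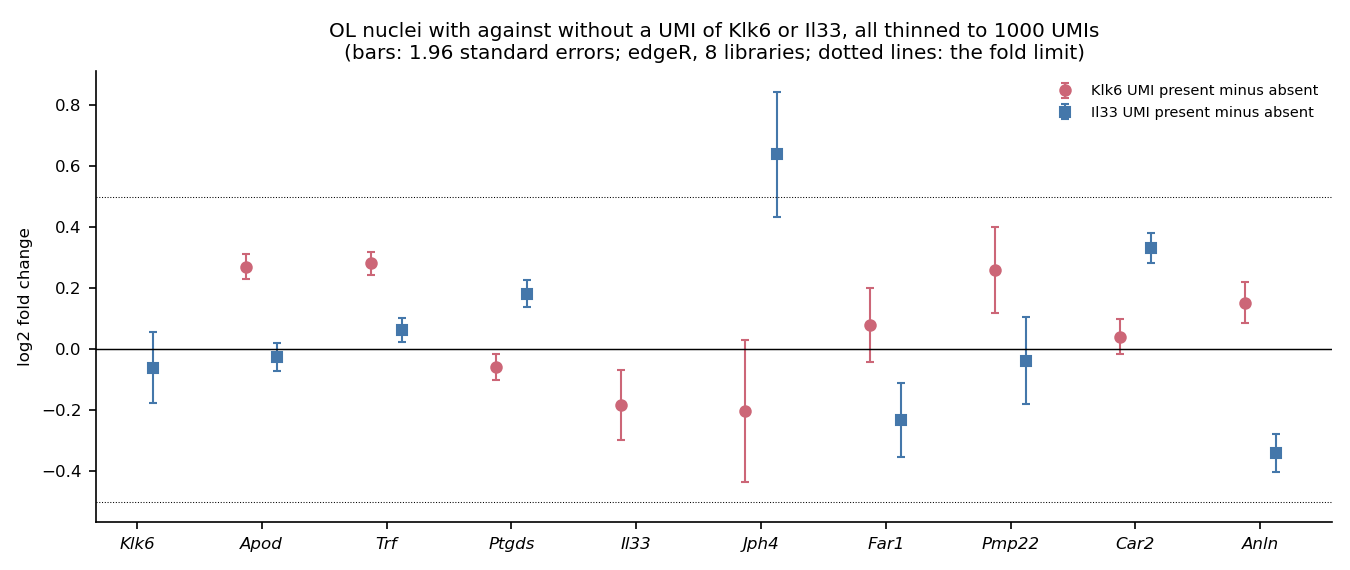
Log2 fold change of the 10 genes between OL nuclei with and without a UMI of *Klk6* (circles) or *Il33* (squares), after thinning to 1000 UMIs, with approximate 95% intervals over 8 libraries and dotted lines at the fold limit of 0.5. *Jph4* in the *Il33* split is the 1 point past the limit, and *Apod*, *Trf* and *Pmp22* lie between 0.26 and 0.28 in the *Klk6* split.

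Between genotypes, *Klk6* was the member that differed. In OL nuclei of control libraries 1 to 4 it measured 126, 145, 148 and 182 CPM, and in the libraries labelled cKO 10 to 13 it measured 233, 317, 285 and 255 CPM. Every library labelled cKO lay above every control. The means were 150 ± 23.6 and 272 ± 36.3 CPM (SD, n = 4 each), a log2 fold change of 0.87 ± 0.12 (edgeR, adjusted p = 0.0433 over 16410 genes), or 1.83-fold. It was 1 of 7 genes called, which is 0.0427% of those tested, and DESeq2 called 111 genes, *Klk6* included. After thinning, a *Klk6* UMI was found in 12.6 to 16.9% of OL nuclei of the controls and 20.02 to 27.1% of those labelled cKO.

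The call stood close to its threshold. It was lost in 8 of 15 alternatives, with log2 fold changes of 0.80 to 0.96 throughout and adjusted p of 9.27e-08 to 0.212. The alternative in which 500 UMIs alone made a nucleus (1.13 ± 0.25, adjusted p = 0.553) is not counted, since its filters left only 53 OL nuclei in control library 4 and 152 in library 13 labelled cKO. The call was lost when control library 1, 2 or 3 or library 11, 12 or 13 labelled cKO was left out (adjusted p = 0.0509 to 0.212), and without nuclei of mixed markers (adjusted p = 0.0646). It was also lost with OL nuclei of at least 1 *St18* UMI.

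The difference was also present outside OL nuclei. In barcodes with fewer than 100 UMIs *Klk6* measured 447, 480, 468 and 483 CPM in the controls and 686, 758, 720 and 608 CPM in the libraries labelled cKO. Its groups did not overlap there either, with a log2 fold change of 0.56 ± 0.15 (edgeR, adjusted p = 0.57). DESeq2 called it in these barcodes (adjusted p = 0.0271). In edgeR's test 0 of the 10 members were called there and 2 had an unadjusted p under 0.05. Of 11463 genes 0.0611% were called and 442 had an unadjusted p under 0.05. In astrocytes *Klk6* measured 68.4, 79.5, 54.4 and 85.2 CPM in the controls and 114, 147, 94.95 and 136 CPM in the libraries labelled cKO (log2 fold change 0.76 ± 0.16, edgeR, adjusted p = 0.585), without overlap. The log2 fold change was 0.78 ± 0.22 in fibroblasts, 0.51 ± 0.24 in OPCs and 0.48 ± 0.21 in myeloid cells, none called by edgeR. DESeq2 called *Klk6* in astrocytes, and without the filter on low counts edgeR called it in astrocytes and fibroblasts.

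The log2 fold change of *Klk6* in OLs was 0.33 ± 0.13 above that in the low barcodes (edgeR, interaction with library as a block, adjusted p = 0.801), and 0.11 ± 0.15 above that in astrocytes. No other member had an unadjusted p under 0.05 in that test, in which 0 of 15864 genes (0%) were called, 859 had an unadjusted p under 0.05, and DESeq2 called 0.

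**Figure D4:**
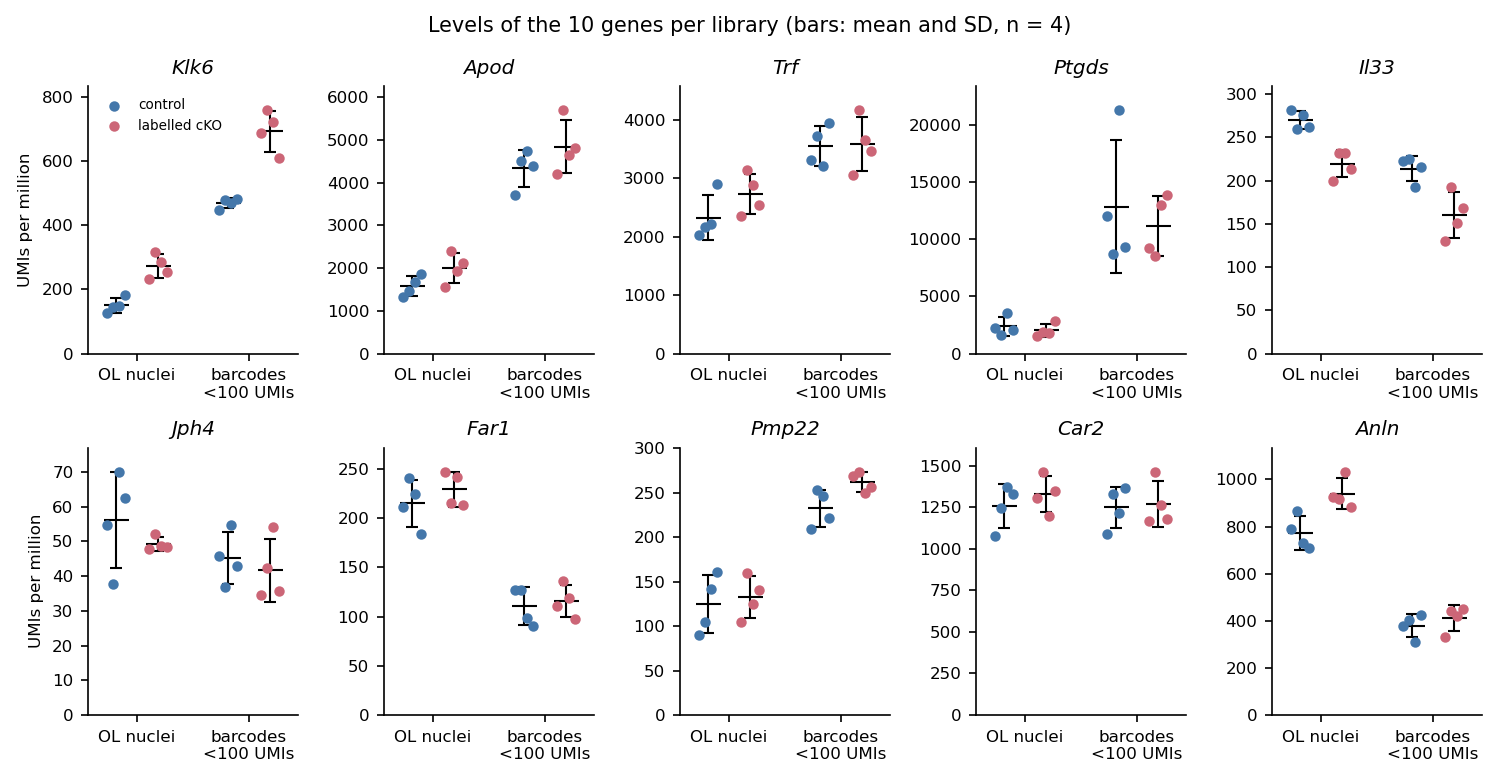
Level of each of the 10 genes, in CPM, in OL nuclei and in barcodes with fewer than 100 UMIs, with 1 point per library and bars for the mean and SD of 4 libraries. *Klk6* shows control and labelled cKO libraries apart in both compartments, with 126 to 182 against 233 to 317 CPM in OL nuclei. *Il33* and *Anln* show them apart in OL nuclei and overlapping in the low barcodes. For *Il33* that overlap is narrow, with the lowest control at 192.4 CPM and the highest library labelled cKO at 192.9 CPM.

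*Il33* and *Anln* were the other members whose genotypes did not overlap in OL nuclei. *Il33* measured 281, 260, 275 and 262 CPM in the controls and 200, 232, 232 and 213 CPM in the libraries labelled cKO, a log2 fold change of −0.29 ± 0.09 (edgeR, adjusted p = 0.314). *Anln* measured 789, 868, 729 and 708 CPM in the controls and 927, 915, 1032 and 883 CPM in the libraries labelled cKO, at 0.29 ± 0.11 (adjusted p = 0.394). Neither was called. Of the 10 members 3 did not overlap, where 6.39% of 16440 genes with a mean of at least 10 UMIs per library did not. In the low barcodes 1 member, *Klk6*, did not overlap (2.17% of 11435 genes), and in astrocytes *Klk6* again (4.45% of 14576 genes). For *Il33* the low barcodes gave −0.42 ± 0.15 (adjusted p = 0.998), with 192 to 225 CPM in the controls and 130 to 193 CPM in the libraries labelled cKO, and for *Anln* 0.12 ± 0.15.

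The remaining 7 members overlapped between genotypes. *Apod* measured 1320 to 1865 CPM in OLs of the controls and 1547 to 2395 CPM in the others, at 0.35 ± 0.14 (adjusted p = 0.42), and *Trf* was at 0.24 ± 0.13. *Ptgds* was at −0.22 ± 0.24 and had its highest OL level, 3579 CPM, in control library 3, where the low barcodes also held the most (21263 CPM against 8557 to 13860 CPM in the other 7 libraries). Without that library the log2 fold change in OLs was 0.03. *Jph4* was at −0.18 ± 0.15, with 37.7 to 70.1 CPM in the controls and 47.9 to 52.2 CPM in the libraries labelled cKO. *Far1*, *Pmp22* and *Car2* lay between 0.09 and 0.11, with approximate 95% intervals from −0.11 to 0.31 for *Far1*, −0.22 to 0.44 for *Pmp22* and −0.09 to 0.27 for *Car2*. The median of the 10 members was 0.10, and that of all genes −0.01. Of 19 other genes of mature OLs tested 0 were called by edgeR or DESeq2. An unadjusted p under 0.05 was found for 5 of them and for 1738 of all 16410 genes tested. The median log2 fold change of the 19 was 0.15. *Hapln2*, a matrix protein of the node of Ranvier, had the largest of these values, 0.59.

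**Figure D5:**
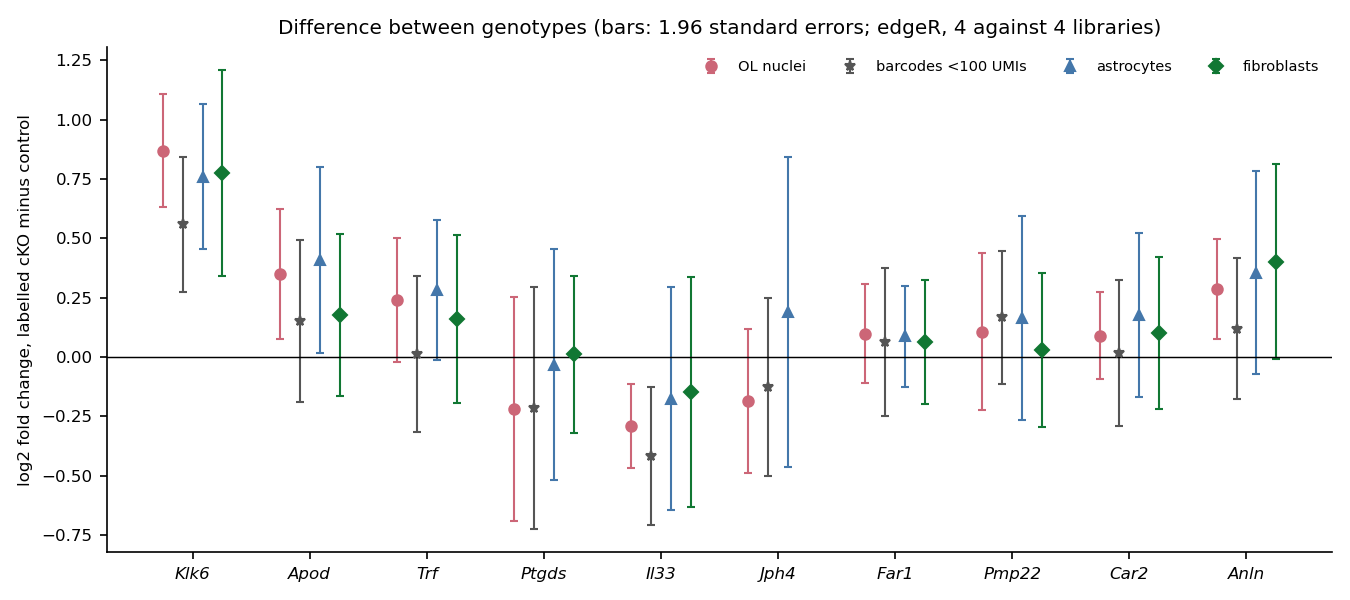
Log2 fold change between genotypes, labelled cKO minus control, for each gene in OL nuclei, barcodes with fewer than 100 UMIs, astrocytes and fibroblasts, with approximate 95% intervals of 4 against 4 libraries. *Klk6* lies above 0 in all 4, from 0.56 to 0.87, and *Il33* lies under 0 in all 4.

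In the other cell types no member was called by edgeR with its count filter. In astrocytes 0 of 10 members were called by edgeR, 1 had an unadjusted p under 0.05, and DESeq2 called 1. In that fit 0% of 14577 genes were called, 1078 had an unadjusted p under 0.05, and DESeq2 called 8. In fibroblasts 0 of 9 members were called by edgeR or DESeq2 and 1 had an unadjusted p under 0.05 (0% of 11924 genes called, 474 with an unadjusted p under 0.05, and 3 by DESeq2). In OPCs 0 of 9 were called by either tool, and 1 had an unadjusted p under 0.05. Of the 7051 genes tested in OPCs 0.241% were called, and 487 had an unadjusted p under 0.05. In myeloid cells 0 of 9 were called by either tool, and 2 had an unadjusted p under 0.05. Of the 6716 genes tested there 0.0298% were called, and 385 had an unadjusted p under 0.05. *Jph4* was too low for a test in fibroblasts, OPCs and myeloid cells. Members other than *Klk6* had log2 fold changes of −0.17 to 0.41 in astrocytes, −0.15 to 0.40 in fibroblasts, −0.14 to 0.42 in OPCs and −0.20 to 0.39 in myeloid cells. Markers of other cell types were also counted in the OL sums. Astrocyte markers summed to 677 to 1080 CPM in the controls and 617 to 769 CPM in the libraries labelled cKO, with 2 of 6 not overlapping, and fibroblast markers to 308 to 636 and 258 to 417 CPM, with 0 of 7. Neuron markers summed to 108 to 324 and 71.0 to 200 CPM, with 0 of 4. Their part in the differences between genotypes was not tested.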

How the data were processed

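The data are single-nucleus RNA libraries (10x 3' chemistry) of mouse ON, 4 control and 4 labelled cKO. The deposited files hold raw UMI counts per gene and barcode, which the authors made with Cell Ranger 7.0.0 on GRCm39, for all barcodes. Later steps of the study (removal of background RNA, doublet calls, integration) are not in these counts.

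Nuclei were called again per library, by the knee of the UMI counts (8000 nuclei expected) and by departure of barcodes with at least 500 UMIs from the free RNA profile (false discovery rate 0.01). Nuclei with under 200 genes or over 5% mitochondrial UMIs were removed, as were outliers of their library by over 5 median absolute deviations in log UMIs, log genes or the share of the top genes, or by over 3 in the mitochondrial share. OLs had at least 3 *St18* UMIs, and other types fewer than 3 *St18* UMIs, at least 3 UMIs of at least 2 marker genes of a type, and over 50% of their marker UMIs from it. The marker UMIs included those of the OL markers *St18*, *Mog*, *Mag* and *Prr5l*. This gate was set after the data had been seen. No doublet caller was run. OL nuclei with at least 3 UMIs of at least 2 markers of a second type, and at least 25% of their marker UMIs from it, were left out in an alternative. Counts were summed per library and tested with edgeR 4.0.16 in R 4.3.3 (quasi-likelihood test, TMM, filterByExpr), with the library as a block for comparisons within libraries and Benjamini-Hochberg adjustment over all genes. Genes were called at an adjusted p below 0.05 and an absolute log2 fold change over 0.5. DESeq2 1.42.0 was an alternative. For the genotype difference in OL nuclei and the *Klk6* split, edgeR's test was also run on simulated counts. These were drawn from the means and spread of the real ones. Detection and co-detection used nuclei thinned to 1000 UMIs. Libraries held 39628926 to 56541132 UMIs.

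The members and gene lists were chosen with earlier results of these data known. Named were the 10 members, *Piezo2*, *Olig2* and *St18*, up to 6 examples of the 20 other OL genes, and for each split the 5 genes with the smallest adjusted p per direction among those called and of 1 direction in every library. Items withheld from this text are not reported here, 1 gene named by this rule among them.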

Additional observations from a re-analysis of the deposited data

How the results depend on the processing

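Of 1269 single-gene values compared under an alternative (in the low barcodes those of *Klk6*, *Il33*, *Anln* and *Ptgds*, in the interaction those of *Klk6*, *Il33* and *Anln*, in other types between genotypes *Klk6*), 1215 kept direction and call, 28 gained a call, 9 lost one (1 of them where 500 UMIs alone made a nucleus, which is void) and 17 changed sign. The counts include values with free RNA subtracted and values where 500 UMIs alone made a nucleus. Both alternatives are void as checks, as given below, so values kept under them add nothing. Where a call changed, the cause was not tested. No paired analysis was possible because control and cKO libraries share no replicate numbers, and the library served as a block only within libraries. Alternatives with barcodes of 100 to under 500 UMIs, or with astrocytes in place of the low barcodes, were chosen after seeing the data. In OL nuclei between genotypes, 0 members in place of 1 were called with at least 1 *St18* UMI, 0 without mixed nuclei, and 0 to 1 when 1 library was left out. With free RNA subtracted the number was 0, but that is void as a check, since *Klk6* was not tested there and the estimate was too high. Genes called there (7) became 111 with DESeq2, 28 with no filter, 4 with at least 1 *St18* UMI, 15 after thinning and 4 to 21 without 1 library. Where 500 UMIs alone made a nucleus, both numbers were 0, but that is void as a check, since the outlier filters, set anew over those barcodes, left 53 OL nuclei in control library 4 (1489 otherwise) and 152 in library 13 labelled cKO (3128 otherwise). In the low barcodes DESeq2 called 1 member in place of 0. Genes called there (7) became 37 with no filter, 4 with barcodes of 100 to under 500 UMIs and 5 to 13 without 1 library. In other types DESeq2 called 1 member and the fit with no filter 2, in place of 0. Genes called in astrocytes (0) became 8 with DESeq2, 13 with no filter and 0 to 5 without 1 library. In fibroblasts (0) they became 3 with DESeq2 and 46 with no filter. In OPCs (17) they became 11 with DESeq2, 43 with no filter and 8 to 19 without 1 library. In myeloid cells (2) they became 1 with DESeq2, 33 with no filter and 0 to 5 without 1 library. With no filter 10947 genes in place of 7138 differed between OLs and astrocytes. Against barcodes of 100 to under 500 UMIs 13438 genes differed from OLs, in place of 8956 against the low barcodes. The interaction (0 genes) gave 2 with no filter, 1 with astrocytes and 0 to 12 without 1 library. Genes of the *Klk6* split (137) became 49 with DESeq2, 9 with no replicate block and 80 in controls alone, and those of the *Il33* split (383) became 254 with DESeq2 and 202 with no replicate block. Pairs detected together above expectation in every library (15) became 9 without mixed nuclei.

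Changes of sign among these values, all on the log2 scale, were these. *Pmp22* in OLs against myeloid cells (0.04) was at −0.0398 with DESeq2, −0.0417 with its size factors, −0.14 in controls alone and −0.083 to 0.084 without 1 library. *Ptgds* in the same comparison (−0.11) was at 0.10 with no filter. Against barcodes of 100 to under 500 UMIs *Il33* was at −0.29, *Jph4* at −0.049 and *Car2* at −0.80. In the interaction with astrocytes *Il33* was at −0.13 and *Anln* at −0.090. Between genotypes in barcodes of 10 to 99 UMIs *Anln* was at −0.13. Without thinning *Car2* in the *Klk6* split was at −0.07 and *Trf* in the *Il33* split at −0.044. Without 1 library *Ptgds* between genotypes ranged from −0.41 to 0.033 in OLs and from −0.35 to 0.17 in the low barcodes, and in the *Il33* split *Apod* ranged from −0.047 to 0.0016 and *Pmp22* from −0.097 to 0.0067. The values above 0 in these 4 ranges came from leaving out control library 3, and the value of *Pmp22* against myeloid cells under 0 from leaving out library 12 labelled cKO. With 4 libraries per genotype and *Jph4* at 3922 UMIs over all OL nuclei, its genotype difference had an approximate 95% interval of −0.49 to 0.12. Outside these values, *Apod*, *Trf*, *Jph4*, *Far1* and *Car2* between genotypes in the low barcodes also took both signs over the alternatives (−0.27 to 0.22), as did *Apod*, *Trf*, *Ptgds*, *Jph4*, *Far1*, *Pmp22* and *Car2* in the interaction (−0.38 to 0.30), none of them called. *Klk6* in the interaction ranged from 0.11 to 0.42, with its lowest value against astrocytes.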
